A study of Mus musculus with 6 samples.

Results

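The genes described here are 10 components of the inflammasome, pyroptosis and necroptosis pathways, Nlrp3, Aim2, Zbp1, Pycard, Casp1, Casp4, Gsdmd, Ripk1, Ripk3 and Mlkl, found by exact match of their symbols in a hippocampal table of 41386 genes. All 10 were among the 18569 genes with enough reads to be tested. RNA was sequenced from hippocampi of C57BL/6 mice, 56 days old, in 2 groups of 3 libraries. In the I/R group a filament occluded the middle cerebral artery for 1.5 h (MCAO) and the brain was then reperfused for 24 h. The sham group had the operation without the occlusion. Both groups were wild type, and the study's methods give male C57BL/6J mice operated under isoflurane. Per the study's methods the tissue was the hippocampus of the operated side and each replicate pooled 3 hippocampi, so replicates differ as pools of tissue do, and variation from mouse to mouse was not measured.

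Inflammasomes are protein platforms that a cell assembles when a sensor such as NLRP3 or AIM2 recognizes danger. The adaptor ASC, encoded by Pycard, then recruits caspase-1, which matures IL-1β and IL-18 and cuts gasdermin D into a fragment that opens pores in the plasma membrane, a lytic death called pyroptosis. Caspase-11, encoded by Casp4 in the mouse, cuts the same pore protein in response to intracellular lipopolysaccharide. Necroptosis is a lytic death without caspases, in which the kinases RIPK1 and RIPK3 form a complex and RIPK3 phosphorylates the membrane-rupturing protein MLKL. ZBP1, a sensor of left-handed nucleic acids, can engage RIPK3 directly.

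Counts assigned to genes summed to 37493042 to 44788547 per library. The first principal component held 71.4% of the variance and separated the groups, with I/R replicate 1 farthest from sham. Markers of hippocampal neurons were present in every library and summed to 741 to 773 CPM (read counts scaled to a common library size, with TMM factors) in sham and 189 to 413 CPM in I/R. Choroid plexus markers ran from 40.6 to 4427 CPM among sham and from 39.2 to 3619 CPM among I/R libraries, so libraries differed in it within both groups. In bulk tissue, more cells of a type and more RNA per cell cannot be told apart.

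Promoter sequences of the members are shown first, because several of the genes are known targets of inflammatory transcription factors. RefSeq windows (GRCm38.p6) were found for 8 of the 10 genes, 11 windows in all, and not for Zbp1 or Gsdmd. The 250 bases before the annotated start are printed 5′ to 3′ on the gene's strand for the neighbours Casp1 and Casp4 and for 1 window each of Nlrp3 and Ripk1. Capitals mark matches to the NF-κB consensus or, in Ripk1, to the gamma-activated site TTCNNNGAA. All of these windows lie on the plus strand.
Casp1, chr9:5298267-5298516: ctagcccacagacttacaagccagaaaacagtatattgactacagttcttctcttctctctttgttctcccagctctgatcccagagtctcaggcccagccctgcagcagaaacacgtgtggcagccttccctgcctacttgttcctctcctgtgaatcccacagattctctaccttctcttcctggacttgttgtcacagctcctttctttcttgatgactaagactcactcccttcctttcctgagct
Casp4, chr9:5308599-5308848: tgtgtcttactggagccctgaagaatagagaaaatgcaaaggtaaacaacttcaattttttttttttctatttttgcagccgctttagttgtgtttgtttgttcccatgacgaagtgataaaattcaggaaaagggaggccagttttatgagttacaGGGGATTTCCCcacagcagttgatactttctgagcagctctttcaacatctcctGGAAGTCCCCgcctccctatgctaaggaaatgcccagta
Nlrp3, chr11:59541319-59541568: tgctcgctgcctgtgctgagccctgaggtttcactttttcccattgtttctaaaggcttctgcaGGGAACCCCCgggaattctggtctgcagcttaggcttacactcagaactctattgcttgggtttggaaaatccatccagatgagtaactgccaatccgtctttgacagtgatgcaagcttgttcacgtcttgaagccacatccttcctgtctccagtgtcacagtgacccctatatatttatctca
Ripk1, chr13:34002624-34002873: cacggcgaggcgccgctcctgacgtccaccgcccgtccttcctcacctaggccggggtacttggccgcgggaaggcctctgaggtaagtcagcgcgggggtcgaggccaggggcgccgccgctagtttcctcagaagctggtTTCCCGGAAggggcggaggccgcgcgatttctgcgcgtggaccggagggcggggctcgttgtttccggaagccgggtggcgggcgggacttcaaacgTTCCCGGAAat

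The Casp4 window held the NF-κB consensus at 2 places, from -93 to -83 and from -39 to -30 relative to the start, and the Casp1 window held none. In Nlrp3 a match lay from -186 to -177 of the start used by 1 of its 2 windows. Among all 32851 windows of this length, 7.25% held the consensus on either strand. Of the 11 member windows 3 held it, counting both of the overlapping windows of Casp4. The gamma-activated site was found in Ripk1, from -108 to -100 and from -11 to -3, in 1 of the 11 member windows and in 7.02% of all windows. No member window held the interferon-stimulated element GAAANNGAAA (2.98% of all windows), the AP-1 sites TGACTCA or TGAGTCA (4.46%) or the cyclic AMP element TGACGTCA (1.55%). The PU.1 core GAGGAA, bound by a factor of myeloid cells, lay in windows of 5 genes, Aim2, Pycard, Casp1, Nlrp3 and Ripk1. This was 5 of the 11 member windows, against 23.3% of all windows. These are matches of letters on both strands, in which a base may count for more than 1 motif, and binding was not measured.

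All 10 genes rose after I/R. With edgeR (quasi-likelihood F-test, p-values adjusted over all tested genes by Benjamini-Hochberg), 10 of 10 members were called higher (adjusted p under 0.05 and fold change over 1.2), against 21.8% of all genes tested. None was called lower, against 19.9% of all genes. Zbp1, Casp4 and Ripk3 passed the count filter through their I/R reads, so being tested already required reads in that group. When at least 10 counts were asked of every library, these genes dropped out and 7 of 7 tested members were called higher. Over 2-fold increases were called for 9 of the 10, all but Aim2, against 10.2% of all genes. In each of the 10, the lowest I/R library lay above the highest sham library, which held for 29.3% of all tested genes. Their median log2 fold change was 1.97, and that of all tested genes was 0.03. I/R replicate 1 gave the highest value of all 10 members, and it was also the highest I/R library for 73.1% of the 4054 genes called higher. Without it all 10 were still called higher. A single gene cannot pass 0.05 in an exact two-sided permutation test of 3 against 3 libraries, and each member gave the smallest p possible, 0.1.

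**Figure D1:**
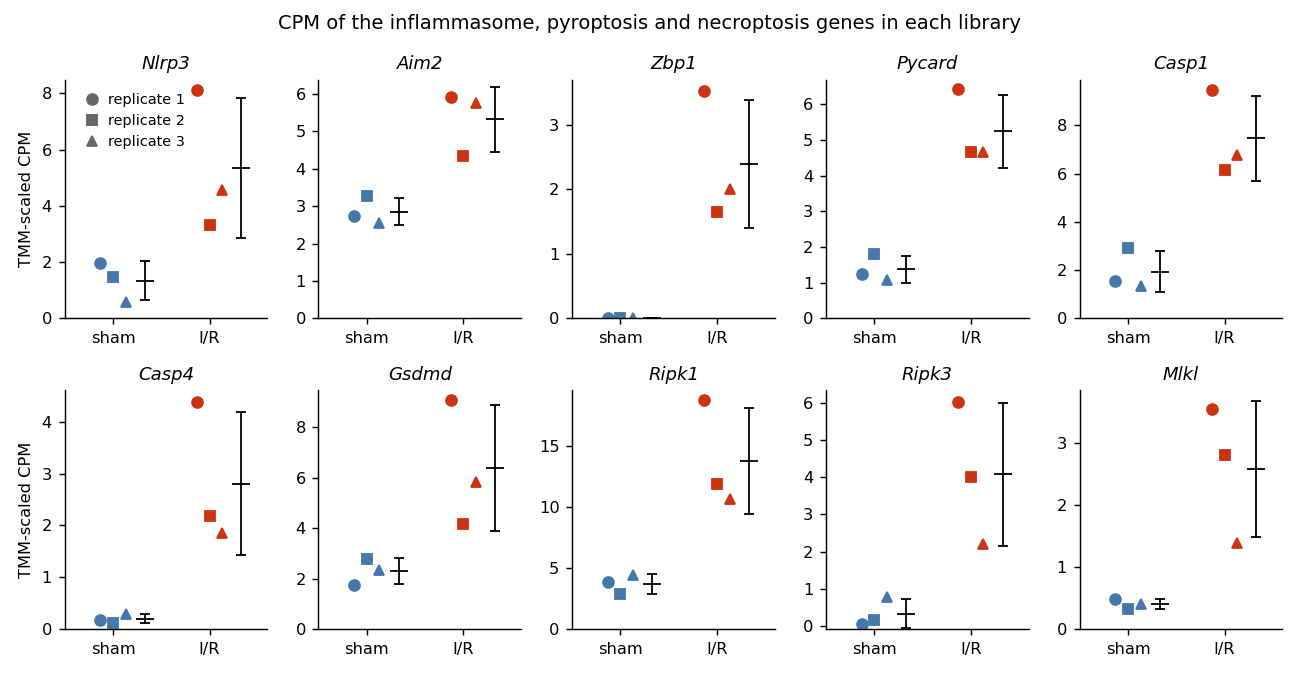
TMM-scaled CPM (linear axis, a scale of its own for each gene) in the 3 sham and 3 I/R libraries, with marker shape for the replicate number and the mean and SD beside the points. Every I/R library is above every sham library for each gene, replicate 1 is the highest I/R library in all 10 panels, and Zbp1 is at 0 in sham.

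Among the sensors, Nlrp3 encodes the NOD-like receptor that responds to ion fluxes and membrane damage (chr11:57464070-57490284 in the BALB/cJ coordinates of the table, plus strand). It was at 8.11, 3.33 and 4.58 CPM in I/R replicates 1, 2 and 3 and at 1.95, 1.45 and 0.581 CPM in sham replicates 1, 2 and 3. The groups did not overlap, but the spread was wide in both, with replicate 1 of I/R at the top and replicate 3 of sham at the bottom. The means were 5.34 ± 2.48 and 1.33 ± 0.691 CPM (SD, n = 3 each), a log2 fold change of 2.0 ± 0.47 (SE) with an adjusted p of 0.0118 in edgeR. Leaving out 1 library at a time moved the log2 fold change between 1.56 and 2.37.

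Zbp1 (chr2:172321120-172333450, minus strand) encodes the Z-form nucleic acid sensor. It had 160, 66 and 80 reads in I/R replicates 1, 2 and 3 and 0 reads in each sham library. Sham was thus empty at this depth, where a count of 0 allows up to 3 reads, or 0.0793 CPM, per library. In I/R the levels were 3.52, 1.65 and 2.0 CPM. The mean was therefore at least 30.1-fold higher in I/R, and at least 23.0-fold without I/R replicate 1 (adjusted p = 0.000934 in edgeR).

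Aim2 encodes the sensor of cytosolic double-stranded DNA. Levels were 5.91, 4.33 and 5.75 CPM in the I/R libraries and 2.74, 3.27 and 2.56 CPM in the sham libraries. This was the smallest change of the set and also the tightest, with a log2 fold change of 0.90 ± 0.21 (SE) and an adjusted p of 0.0105 in edgeR. The table's model of Aim2 (chr1:172474547-172616610, plus strand) overlaps Cadm3, a neuronal adhesion gene on the opposite strand, over 16823 bp. Cadm3 had 17906 to 23194 reads in sham and 8012 to 12312 in I/R, against 88 to 133 and 173 to 269 for Aim2. Whether strand was used in counting is not given in the sources used here, so reads of the overlap cannot be assigned with certainty. The Aim2 levels of both groups, and with them its fold change, are uncertain for that reason.

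The adaptor gene Pycard (chr7:128495357-128499505, minus strand) was at 6.42, 4.65 and 4.65 CPM in I/R and at 1.23, 1.80 and 1.08 CPM in sham. Its I/R libraries were the closest together of the adaptor, caspase and pore genes. The log2 fold change was 1.93 ± 0.27 (SE, adjusted p = 0.00151 in edgeR), from means of 5.24 ± 1.02 and 1.37 ± 0.380 CPM (SD, n = 3 each). An unnamed gene on the opposite strand shares 588 bp with it, but had at most 24 reads in any library.

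Casp1 and Casp4 lie side by side on the plus strand (chr9:1962105-1970873 and chr9:1972436-2000737). Casp1, the caspase of the canonical inflammasome, was at 9.47, 6.15 and 6.75 CPM in I/R and at 1.54, 2.93 and 1.34 CPM in sham. Casp4, the caspase of the non-canonical route, was at 4.39, 2.18 and 1.85 CPM in I/R and at 0.179, 0.123 and 0.291 CPM in sham. Casp1 was thus clearly detected in sham, whereas Casp4 rested there on 7, 5 and 10 reads. The log2 fold changes were 1.94 ± 0.33 for Casp1 and 3.83 ± 0.49 for Casp4 (SE, adjusted p = 0.00315 and 0.00117 in edgeR), or 3.84-fold and 14.2-fold. The next caspase gene of the cluster, Casp12, also rose, with a log2 fold change of 1.88 ± 0.38 (adjusted p = 0.00642 in edgeR), and was named after its value was seen because of its place beside Casp4. Of the 50-base stretches of Casp1 and Casp4 transcripts in GENCODE M21, 0% and 0.24% occurred in transcripts of another gene on either strand, and for the other members the share was 0% to 0.742%, except for Pycard (11.7%, most with Gm45205) and Ripk1 (7.87%, most with Gm17084), whose counts could depend on how shared reads were handled.

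Gsdmd (chr15:73159766-73164867, plus strand), the pore protein cut by both caspases, was at 9.10, 4.18 and 5.85 CPM in I/R and at 1.74, 2.76 and 2.35 CPM in sham. The highest I/R library was again replicate 1, and the groups came closest between I/R replicate 2 and sham replicate 2. The log2 fold change was 1.48 ± 0.32 (SE, adjusted p = 0.00807 in edgeR) and fell to 1.13 when I/R replicate 1 was left out.

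Ripk1 (chr13:31239938-31272594, plus strand), the kinase at the branch between survival signalling and death, had a higher mean FPKM than Ripk3 and Mlkl in both groups. It was at 18.8, 11.9 and 10.7 CPM in I/R and at 3.84, 2.83 and 4.42 CPM in sham. The separation was wide, and the log2 fold change was 1.90 ± 0.27 (SE, adjusted p = 0.00154 in edgeR). Its model overlaps Serpinb6a on the opposite strand by 432 bp, and Serpinb6a had 1042 to 1121 reads in sham and 1665 to 2628 in I/R. An unnamed gene on the same strand shares 2108 bp with it, and another on the opposite strand shares 1366 bp. They had at most 8 and 20 reads in any library. How reads of these overlaps were assigned is not given, so the Ripk1 count is uncertain there.

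Ripk3 (chr14:48807567-48811428, minus strand), the kinase that activates MLKL, was at 6.04, 4.0 and 2.20 CPM in I/R and at 0.0512, 0.148 and 0.785 CPM in sham. The sham libraries held 2, 6 and 27 reads, with 95% Poisson intervals (counting error alone) of 0.242 to 7.22 for the first and 17.8 to 39.3 for the last. Sham replicate 3 had the highest level of the 3 pools, and the fold change depended on it. The log2 fold change was 3.68 ± 0.77 (SE, adjusted p = 0.00719 in edgeR), and it was 5.30 without sham replicate 3.

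Mlkl (chr8:109618806-109648826, minus strand), the executor of necroptosis, was at 3.54, 2.80 and 1.38 CPM in I/R and at 0.487, 0.320 and 0.407 CPM in sham. The sham libraries were close together and every I/R library was above them, replicate 3 by the least. The log2 fold change was 2.66 ± 0.42 (SE, adjusted p = 0.00238 in edgeR), or 6.33-fold.

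**Figure D2:**
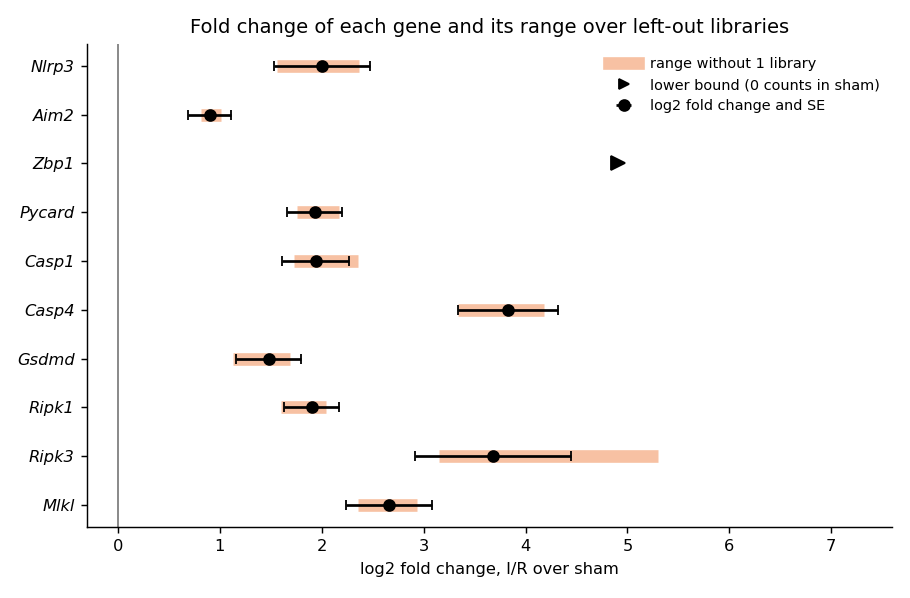
Log2 fold change of each gene (x axis, I/R over sham) with its SE, and in orange the range over the 6 fits that each leave out 1 library. Zbp1 is drawn as a lower bound. Ripk3 has the widest range, 3.15 to 5.30, and Aim2 the narrowest, 0.81 to 1.01.

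Compared per length, all 10 genes were expressed at low levels. In FPKM (counts per unit of gene length and of library size), the sham order was Aim2 (2.58 ± 0.317, SD, n = 3), Casp1 (1.18 ± 0.519), Gsdmd (1.18 ± 0.255), Ripk1 (1.16 ± 0.258), Pycard (0.582 ± 0.157), Nlrp3 (0.422 ± 0.221), Mlkl (0.282 ± 0.0600), Ripk3 (0.175 ± 0.214), Casp4 (0.174 ± 0.0755) and Zbp1 (0). Only the steps from Aim2 to Casp1, from Ripk1 to Pycard and from Casp4 to Zbp1 separated all libraries of neighbouring genes. In I/R the order ran from Aim2 (5.76 ± 1.1 FPKM), Casp1 (5.48 ± 1.57) and Ripk1 (5.2 ± 1.92) down to Nlrp3 (2.05 ± 1.05) and Zbp1 (1.30 ± 0.606), and no pair of neighbours was separated. The place of Aim2 in both orders is uncertain because of its overlap with Cadm3. In sham the members lay between the 0th and the 35.5th percentile of tested genes by mean FPKM, and in I/R between the 22.2nd and the 42.3rd. Zbp1, Casp4, Ripk3 and Mlkl, which had the lowest sham means, had the 4 largest fold changes. The sham level is the denominator of the fold change, so this match is in part built in.

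**Figure D3:**
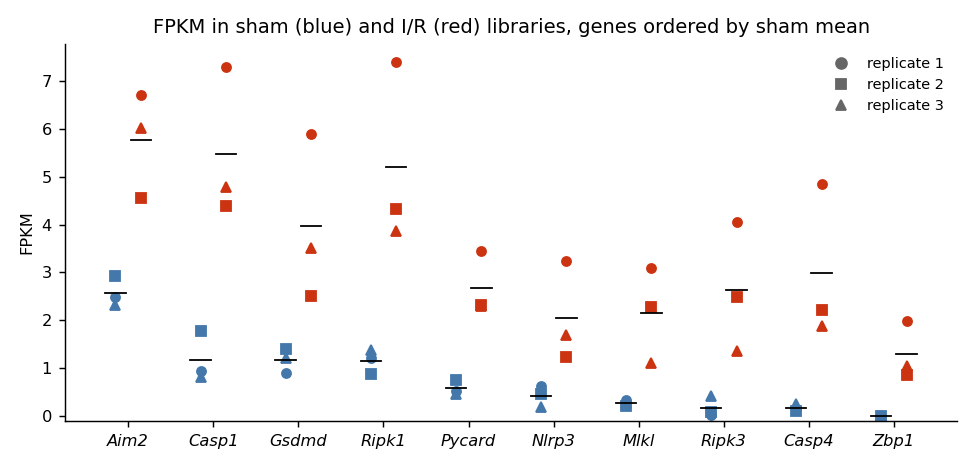
FPKM of each gene in every library (linear axis), sham in blue and I/R in red, with bars at the means and genes ordered by their sham mean. Sham means run from 2.58 for Aim2 to 0 for Zbp1, and I/R means from 5.76 to 1.30.

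Ratios between members within a library do not depend on how libraries are scaled. They were chosen after the single-gene values were seen, and 6 were computed. The FPKM ratio of Casp4 to Casp1 was 0.666, 0.508 and 0.393 in I/R against 0.167, 0.0603 and 0.312 in sham. For Ripk3 over Ripk1 it was 0.549, 0.575 and 0.352 in I/R against 0.0227, 0.0889 and 0.303 in sham. For both pairs the groups did not overlap, and sham replicate 3 came closest to I/R. Mlkl over Ripk1 did not overlap either, with means of 0.410 ± 0.119 and 0.246 ± 0.0387 (SD, n = 3 each), though I/R replicate 3 (0.287) and sham replicate 1 (0.282) nearly met. The exact permutation p was 0.1 for these 3 ratios, the smallest possible, and 0.2 after adjustment over the 6. Casp1 over Pycard was 2.03 ± 0.118 in I/R and 1.97 ± 0.318 in sham (exact permutation p = 0.8, adjusted 0.96), and Nlrp3 over Pycard was 0.737 ± 0.205 and 0.729 ± 0.404 (exact permutation p = 1, adjusted 1). Gsdmd over Casp1 was 0.704 ± 0.121 in I/R and 1.08 ± 0.361 in sham, with overlapping libraries (exact permutation p = 0.2, adjusted 0.3).

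**Figure D4:**
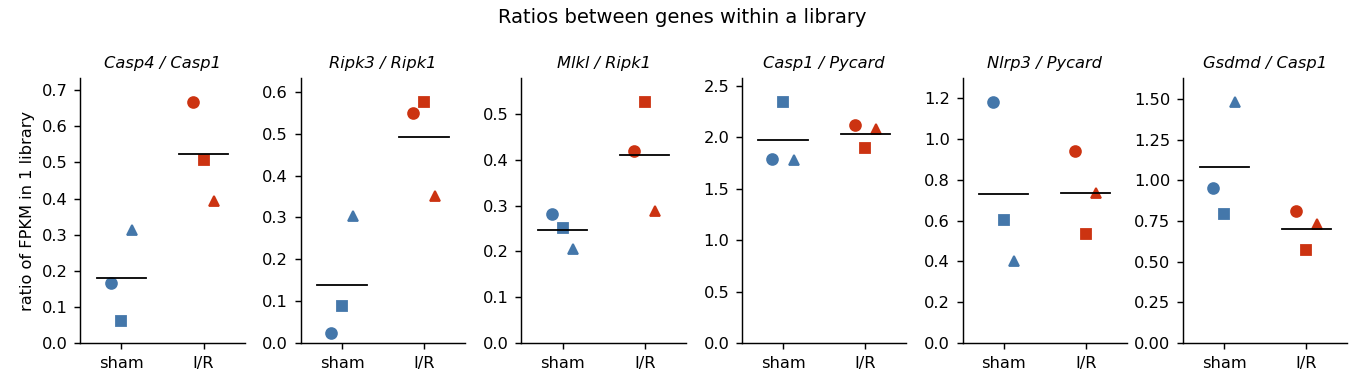
Ratio of FPKM between 2 genes in the same library (linear axes from 0), by group, with bars at the means. The first 3 ratios, led by Casp4 over Casp1 with means of 0.180 in sham and 0.522 in I/R, are higher in every I/R library, and the other 3 overlap.

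Markers of several cell types moved with the members. Of 8 microglia markers 5 were called higher and 2, P2ry12 and Tmem119, lower, and the sum of the 8 was 396 to 560 CPM in I/R and 284 to 321 CPM in sham. C1qa made the largest part of this difference, at 205, 143 and 144 CPM in I/R and 53.1, 56.8 and 53.1 CPM in sham. Of the monocyte and macrophage markers 7 of 8 were named in the table and 5 of 6 tested were called higher (38.1 to 70.4 against 12.4 to 16.3 CPM). All 4 neutrophil markers that could be tested, of 8 listed, were called higher (6.38 to 32.3 against 0.233 to 1.59 CPM), with the defining marker Ly6g at or under 3 reads in every library. T and NK cell markers summed to 3.48 to 4.17 CPM in I/R and 0.959 to 2.31 CPM in sham, with Cd3e, Cd3g and Cd8a at or under 3 reads throughout. Most of this sum was Lck, the 1 marker of 7 with enough reads to be tested. Lck was at 3.28 to 3.71 CPM in I/R and 0.698 to 2.1 CPM in sham. All 4 endothelial markers were called higher (272 to 457 against 160 to 161 CPM), and all 4 neuronal markers tested were called lower (1237 to 2502 against 4502 to 4720 CPM). Astrocyte markers summed to 3005 to 3769 CPM in I/R and 2093 to 2245 CPM in sham, with 2 of 5 called higher (Gfap and Aqp4) and 2 lower (Slc1a3 and Aldoc). Gfap carried the rise of this sum, at 2415, 1715 and 1864 CPM in I/R replicates 1, 2 and 3 and 375 to 435 CPM in sham. Oligodendrocyte markers summed to 4518 to 5033 against 5687 to 7064 CPM, with 2 of 5 called lower. Among the I/R libraries, replicate 1 had the highest sums of microglia, macrophage, neutrophil, T and NK cell, astrocyte, oligodendrocyte and endothelial markers, as it had of the members, and the lowest sum of neuronal markers. For the astrocyte sum this place of replicate 1 rested on Gfap.

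Each member's CPM was also divided by the microglia, the monocyte and macrophage, the neutrophil and the endothelial sum of its library, a comparison chosen after the data were seen. Zbp1 had 0 reads in each sham library. Its ratio to any of these sums was therefore bound to be higher in every I/R library. Relative to the microglia sum, all 10 members were higher in every I/R library than in any sham library, against 9.82% of all tested genes (55.6% were lower in every I/R library). The fold of this ratio was 8.95 for Casp4, 8.07 for Ripk3, 4.10 for Mlkl and 1.23 for Aim2. Relative to the monocyte and macrophage sum, 3 members, Zbp1, Casp4 and Ripk3, were higher in every I/R library, against 2.74% of all genes. Casp4 was 4.02-fold and Ripk3 3.81-fold higher on that scale, Mlkl was 1.84-fold higher with overlapping libraries, and Aim2 was lower in every I/R library (0.572-fold), as were 84.3% of all genes. For Nlrp3, Pycard, Casp1, Gsdmd and Ripk1 the libraries overlapped, with folds of 0.822 to 1.17. Relative to the endothelial sum, 6 members, Zbp1, Pycard, Casp4, Ripk1, Ripk3 and Mlkl, were higher in every I/R library and none lower, against 5.29% and 74.3% of all genes. The neutrophil sum rose the most, 18.6-fold from at most 1.59 CPM in sham. Among the members only Zbp1, with its 0 sham reads, was higher relative to it in every I/R library (0.442% of all genes). The 5 members Nlrp3, Aim2, Pycard, Gsdmd and Ripk1 were lower relative to it in every I/R library (94.2% of all genes). The part of cell numbers in the rise of the members was not tested.

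Other genes of the inflammasome and pyroptosis pathway were taken from a list of 34, of which 27 were named in the table and 18 tested. Of these, 12 were called higher and 1 lower, against 21.8% and 19.9% of all tested genes, with a median log2 fold change of 0.76 against 0.03 for all genes, and 8 were called when sham replicate 2 was left out. Il1rn, the secreted receptor antagonist of IL-1, had 1205, 268 and 363 reads in I/R replicates 1, 2 and 3 and 0 in each sham library. Against the same floor of 3 reads, Il1rn was at least 178-fold higher, and at least 99.5-fold without I/R replicate 1. The adjusted p with all libraries was 0.00143 in edgeR. The inflammasome substrate Il1b was at 4.81, 0.976 and 1.65 CPM in I/R and at 0.0768, 0.172 and 0.262 CPM in sham. Its log2 fold change was 3.86 ± 0.73 (adjusted p = 0.00468 in edgeR) and 2.94 without I/R replicate 1. Il18, the other substrate, was at 7.73, 8.68 and 8.85 CPM in I/R and at 10.4, 9.15 and 10.9 CPM in sham. It was not called (log2 fold change -0.27 ± 0.14, adjusted p = 0.156 in edgeR). Naip2, a sensor of bacterial secretion systems with close paralogs, rose by 2.41 ± 0.34 on the log2 scale. Its listed paralogs Naip1, Naip5 and Naip6 were not named in the table, and whether their reads were counted as Naip2 was not tested. Casp8, which can cut gasdermins and holds necroptosis in check, rose by 2.09 ± 0.25. Smaller increases were called for Txnip, which binds NLRP3 (0.89 ± 0.22, not called without sham replicate 2), and for Ninj1, which ruptures the membrane after pores form (0.57 ± 0.12). Nek7, the NLRP3 partner kinase, was at 0.27 ± 0.08 and lost its call in 9 of 16 alternatives. Gsdme, another gasdermin, was the 1 gene called lower (-0.35 ± 0.12) and lost its call in 11 of 16. Nlrp6, Il18, Il18bp, Brcc3 and Ptpn22 were not called.

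From a list of 40 other necroptosis genes 39 were tested, of which 15 were called higher and 4 lower, against the same 21.8% and 19.9% of all genes, with a median log2 fold change of 0.25 against 0.03. With library size as the sole scaling, 23 were called higher and 2 lower. Tnf, the ligand that starts the pathway, was at 2.81, 1.05 and 3.23 CPM in I/R and at 0.102, 0.0246 and 0 CPM in sham. Its sham level rested on 4, 1 and 0 reads, and the log2 fold change of 5.66 ± 0.78 (adjusted p = 0.00148 in edgeR) was 7.17 without sham replicate 1. Its receptor Tnfrsf1a rose by 2.84 ± 0.20 on the log2 scale and the death receptor Fas by 2.16 ± 0.26. Among brakes on the death complex, Birc3, a ubiquitin ligase for RIPK1, rose by 2.03 ± 0.34 and Cflar, the partner of caspase-8, by 0.82 ± 0.13. Tnfaip3, a ubiquitin-editing enzyme, rose by 0.67 ± 0.21 and the adaptor Fadd by 0.78 ± 0.25, each losing its call in several alternatives (4 and 6 of 16). The 4 genes called lower were Cyld, the deubiquitinase that frees RIPK1 for the death complex (-0.93 ± 0.17), its partner Spata2 (-0.68 ± 0.11), Rbck1, a subunit of the linear ubiquitin ligase (-0.37 ± 0.08), and the caspase inhibitor Xiap (-0.37 ± 0.11). Rbck1 lost its call in 3 of 16 alternatives and Xiap in 8, among them library size as the sole scaling for both.

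Of 24 priming, trigger and interferon-inducible genes 23 were tested, 19 were called higher and none lower (21.8% and 19.9% of all genes), with a median log2 fold change of 1.11 against 0.03. The largest changes were in the guanylate-binding proteins Gbp2 (3.45 ± 0.25) and Gbp3 (2.61 ± 0.25), members of a family of close paralogs, and in the pattern receptors Tlr2 (3.23 ± 0.34) and Tlr4 (2.37 ± 0.29). Irf1, an interferon-response factor, rose by 0.96 ± 0.16. P2rx7, the ATP-gated channel that triggers NLRP3, had a log2 fold change of 0.63 ± 0.25 and was not called (adjusted p = 0.0798 in edgeR). Irf2 was at -0.18 ± 0.10, and Panx1 and Ifnar1 were not called either.

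**Figure D5:**
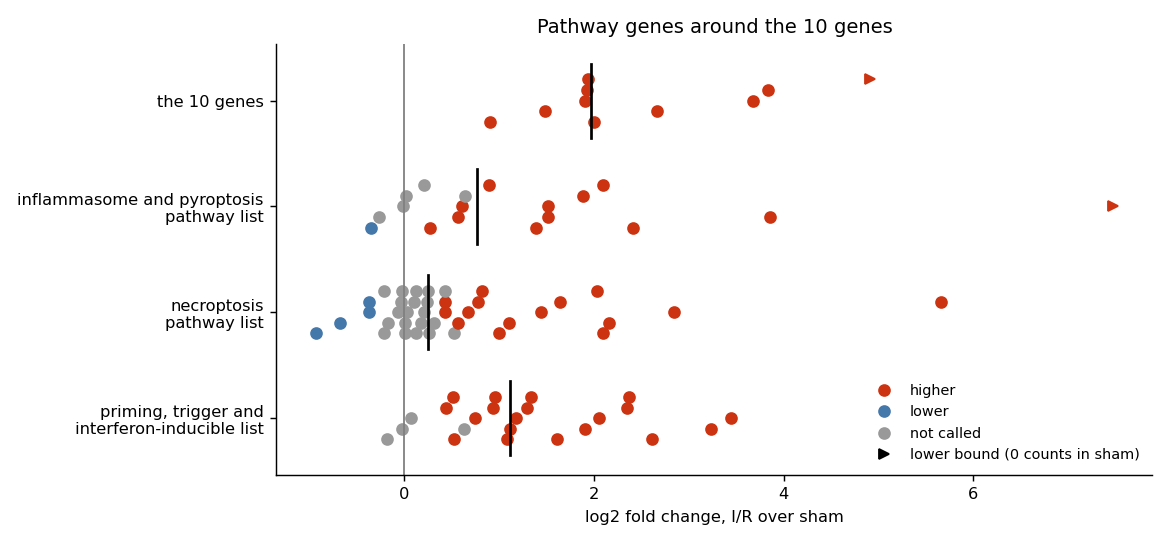
Log2 fold change (x axis, I/R over sham) of the 10 genes and of the tested genes of the 3 pathway lists, coloured by call, with a vertical bar at each median and lower bounds as triangles. The medians are 1.97 for the 10 genes and 0.76, 0.25 and 1.11 for the lists.

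The 5 named genes whose centred log2 CPM over the 6 libraries lay closest to the mean profile of the members were Nfil3, Kdm6bos, Mvp, Inhba and Odc1, with root mean square differences of 0.0491, 0.0759, 0.0838, 0.0870 and 0.110. Nfil3, a bZIP transcription factor, had mean CPM of 39.0 in I/R and 6.80 in sham. Kdm6bos was near the detection limit in sham (0.0529 CPM) and lies opposite Kdm6b, so its reads are uncertain without strand.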

How the data were processed

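Hippocampal RNA of 3 I/R and 3 sham pools was sequenced. The authors aligned reads with TopHat2 to an Ensembl genome and counted them per gene with HTSeq, and the deposited table holds these raw counts and the authors' FPKM (counts scaled by gene length and library size). The submitters' processing notes name instead Bowtie 0.12.2 and mm8, while most identifiers in the table are of the BALB/cJ assembly, whose coordinates are printed. Strand setting and handling of multiply mapped reads are not given in the sources used here. The table also holds the authors' own fold changes and p-values, which were not used. Broken lines (4) were rejoined, giving 41386 genes. Genes without a name took 4.24 to 4.74% of counts and stayed in the fit.

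Differential expression was computed from the counts (edgeR 4.0.16 under R 4.3.3, filterByExpr, TMM, robust quasi-likelihood F-test, Benjamini-Hochberg over 18569 genes) and called at adjusted p under 0.05 and fold change over 1.2. SE is the log2 fold change over the square root of F. Groups and replicate numbers came from sample titles. Alternatives used DESeq2 1.42.0, limma 3.58.1 on log2(FPKM + 1) and log2(FPKM + 0.1), other scalings, filters, covariates and 1 library left out. The scripts were tested on simulated data. Named genes were all members, the 4 largest called changes of each list and a set of fixed names, and the 5 genes most like the members, and 1 fixed name is not reported here. Casp12 and the list genes called lower or not called where these were 5 or fewer were named after their values were seen. The members and lists were chosen with earlier results of these data known. Intervals and floors cover counting error only, and p-values measure the spread between pools.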

Additional observations from a re-analysis of the deposited data

How the results depend on the processing

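All 10 members were called higher in each of the 16 other fits in which they could be tested, with the largest adjusted p at 0.0491. Zbp1, Casp4 and Ripk3 could not be tested when at least 10 counts were asked of every library, which left 7 of 7. With a fold change over 2 the count was 9. On log2(FPKM + 1) the fold changes of low genes were smaller, for example 1.69 for Casp4 and 1.58 for Ripk3. A fold change over 2 left 8 of 13 calls in the inflammasome list and 8 of 19 in the necroptosis list. Leaving out 1 library gave 8 to 12, 15 to 20 and 15 to 18 calls in the inflammasome, necroptosis and priming lists, the lowest inflammasome count without sham replicate 2. Scaling by library size alone moved the median of all genes from 0.03 to 0.28 and the calls from 4054 higher and 3702 lower to 6334 and 2027, and the member median to 2.24. With the choroid plexus level as a covariate the log2 fold change of Ripk3 was 4.16.

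Libraries of the same number did not deviate together (r = -0.10, 0.06 and -0.18). This gave no sign that the replicate number pairs them, but 3 libraries per group cannot settle it. With a replicate block 10 members were called, and 9, 17 and 15 genes of the 3 lists. Among the other named genes of the lists, calls changed in at least 1 alternative for Gsdme, Nek7, Txnip, Fadd, Tnfaip3, Xiap and Rbck1, which lost it, and P2rx7, Il18bp and Ifnar1, which gained one, and the causes were not tested. Depth limits Zbp1, Casp4, Ripk3, Il1rn and Tnf in sham, which had 0 to 27 reads there.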
